A study of Arabidopsis thaliana with 7 samples.

Results

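ZF-DDR5 peaks centred in the protein-coding genes of the pericentromeres of Arabidopsis thaliana numbered 672 of the 9999 peaks in the list (6.72%). A member is a peak whose centre lies in a protein-coding gene and inside 1 of 5 fixed windows. The windows run from 11.5 to 17.7 Mb on chromosome 1, 1.1 to 7.2 Mb on chromosome 2, 10.3 to 17.3 Mb on chromosome 3, 1.5 to 6.3 Mb on chromosome 4 and 9 to 16 Mb on chromosome 5 (TAIR10), 31.1 Mb in all. The rule used positions only and no measured value. The remaining sequence of the same chromosomes is called the arms, where 7821 peaks were centred in protein-coding genes.

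The study carried out ChIP-seq, in which DNA bound by a protein is precipitated with an antibody and sequenced, on 7 samples of 12-day seedlings: ZF-DDR5 (n = 2), ZF-DDR4 (n = 2), Col-0 (n = 2) and Col-0 g3 (n = 1). ZF-DDR5 and ZF-DDR4 plants express a zinc finger joined to DDR5 or to DDR4, the DDR4 protein being labelled as a fusion with the FLAG tag, and Col-0 is the untransformed wild type. The titles of both ZF-DDR5 samples also carry g3, a mark that no label explains. Per the labels' protocols, chromatin was fixed with formaldehyde, sonicated and precipitated with anti-FLAG; that text speaks of 2 independent T3 homozygous lines of the DDR4 fusion and is repeated for ZF-DDR5, whose own labels name no antibody and no number of lines. All values come from 1 peak list, that of ZF-DDR5 replicate 1. With 1 list and neither a second replicate nor a Col-0 list to set beside it, there is no replicate error, no test was made, and how far Col-0 has the same peaks is not known. Intervals at 95% cover counting error only, and the value on each chromosome is given as a further measure of spread.

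Pericentromeres flank the centromeres and are the part of Arabidopsis chromosomes richest in transposons and heterochromatin, with DNA methylation and histone H3 lysine 9 methylation. Protein-coding genes are scattered among the transposons there, and many of them are expressed. DDR proteins carry a DDT domain, a module that binds ISWI remodellers, which slide and space nucleosomes. The peaks thus give, for an ISWI partner carrying a zinc finger, a set of genes inside heterochromatin-rich sequence to set beside the genes of the arms.

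A smaller share of genes had a peak in the windows than on the arms, on every chromosome. In the windows 616 of 3383 protein-coding genes (18.2%, Wilson interval 16.9% to 19.5%) held a peak centre, against 6756 of 24061 arm genes (28.1%, 27.5% to 28.6%). Over all protein-coding genes the share was 26.9%. The difference, windows minus arms, was -9.87 percentage points (Newcombe interval -11.3 to -8.42), and the ratio of the shares was 0.648. By chromosome, the window share was 21.2% on chromosome 1, 12.8% on 2, 17.8% on 3, 22.1% on 4 and 18.6% on 5. The arm shares in the same order were 28.3%, 27.8%, 27.9%, 27.8% and 28.4%. The highest window share, on chromosome 4, was therefore below the lowest arm share. Window shares varied more among chromosomes, with a mean of 18.5% ± 3.66, than arm shares, with a mean of 28.0% ± 0.282 (SD, n = 5 chromosomes each). The windows hold 12.3% of the 27444 nuclear protein-coding genes. Sequencing depth is unknown, and whether reads map uniquely in each gene was not assessed.

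The peaks of the windows were split almost evenly between coding genes and other sequence, unlike those of the arms. Of 1356 window peaks, 49.6% were centred in a protein-coding gene, against 90.5% of 8643 arm peaks. Coding genes cover 21.8% of the windows and 65.5% of the arms. Per Mb of coding gene, the windows held 99.2 peak centres (exact Poisson interval 91.9 to 107) and the arms 136 (133 to 139). Per Mb of other sequence the values were close, 28.1 in the windows and 27.1 on the arms. Of the 684 window peaks centred outside coding genes, 408 (59.6%) lay in pseudogenes, a class of the gene table that includes transposon genes, against 172 of 822 arm peaks (20.9%). Pseudogenes also lay nearer to coding genes there: 19.3% of window genes overlapped one or lay within 1 kb, against 4.28% of arm genes. How much of the other sequence pseudogenes cover was not measured, so these shares cannot be read as a preference of the peaks.

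Window genes are shorter than arm genes, and long genes had peaks more often in both regions. The median gene length was 1714 bp in the windows and 2120 bp on the arms. With all protein-coding genes split by length into 5 classes of equal size, 33.8% of window genes fell in the shortest class, against 18.1% of arm genes. In that class, up to 1146 bp long, 6.55% of window genes had a peak, against 12.3% of arm genes. In the next classes the shares were 14.5% in the windows against 20.2% on the arms, then 20.9% against 26.9%, and then 27.6% against 32.6%. In the longest class, above 3310 bp, 35.8% of window genes had one, against 46.2% of arm genes. The window share was lower in all 5 length classes, and no pair of Wilson intervals overlapped except in the fourth class, where the upper window limit of 31.5% lay just above the lower arm limit of 31.4%. With arm genes re-weighted to the lengths of window genes, the arm share was 24.4% and the difference -6.18 points.

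**Figure D1:**
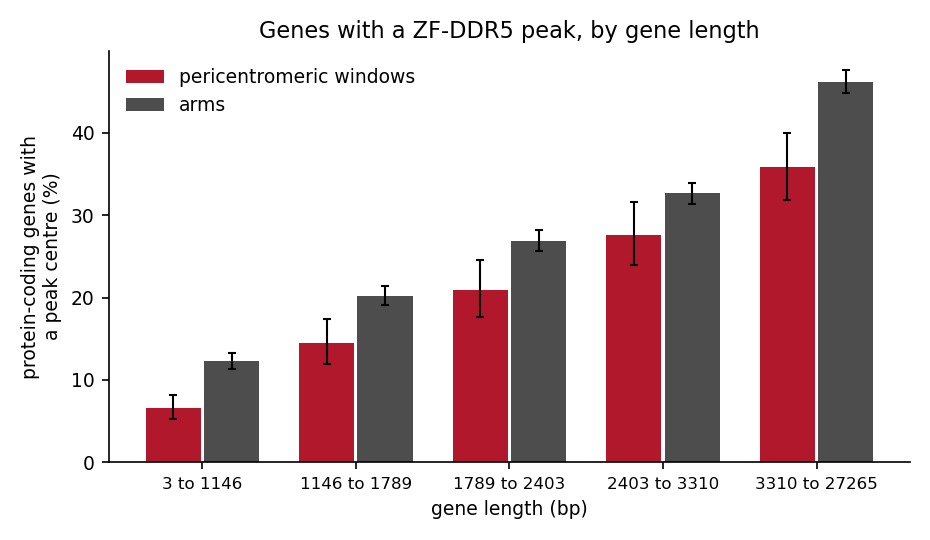
Share of protein-coding genes with a peak centre (%), in 5 classes of gene length (bp), in the windows (red, left) and on the arms (grey, right), with Wilson 95% intervals. Both series climb with gene length, in the windows to 35.8% and on the arms to 46.2%.

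Window genes with a peak were longer than window genes without one and more often had a symbol, as on the arms. Their median length was 2554 bp, against 1492 bp for window genes without a peak; on the arms it was 2667.5 bp against 1932 bp. A gene symbol was given for 36.4% of window genes with a peak and 24.5% of those without, and on the arms for 43.9% and 37.6%. Among window genes with a symbol 24.8% had a peak, against 31.3% of such arm genes. Among genes known only by a locus number, 15.8% had one in the windows and 26.0% on the arms. Genes with 1 RefSeq transcript had a peak in 15.2% of cases in the windows and 24.7% on the arms, and those with 3 or more in 27.1% and 34.7%. Window genes overlapping a pseudogene or within 1 kb of one had a peak in 15.5% of cases, and those 1 to 5, 5 to 20 and over 20 kb from one in 16.6%, 20.0% and 22.1%. The same classes gave 27.6%, 24.8%, 27.2% and 28.7% on the arms.

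The window share was lower in each quartile of gene density. Counting the protein-coding genes within 50 kb of each gene, the median was 17 in the windows and 27 on the arms. In the quartile of lowest gene density, which holds 2672 window genes, 18.4% had a peak in the windows against 27.5% on the arms. In the next quartiles the shares were 20.4% against 29.6%, 14.4% against 28.2% and, in the densest, 13.8% against 26.9%. The densest quartile holds only 109 window genes, and no window quartile had a larger share than any arm quartile.

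Over all 5 windows, the share was lowest in the bands around the midpoint. The sequence on either side of a window's midpoint was divided into 5 bands of equal width, counted outward. From the innermost to the outermost band, 9.14%, 8.89%, 18.7%, 18.7% and 21.5% of genes had a peak. Arm genes re-weighted to the gene lengths of each band gave 21.4%, 21.6%, 23.6%, 25.7% and 25.04%. The inner 2 bands together had a peak in 49 of 546 genes (8.97%, 6.85% to 11.7%), and the outer 3 in 567 of 2837 (20.0%, 18.6% to 21.5%). The inner share was lower in each of the 5 length classes, for example 28.8% against 36.9% among the longest genes and 1.53% against 8.03% among the shortest. By chromosome, the innermost band ranged from 0 of 27 genes on chromosome 1, which allows a share of up to 11.1% by a limit of 3 counts (12.5% by Wilson), to 15.2% on chromosome 5. The inner 2 bands had 7.04% against 22.9% in the outer 3 on chromosome 1, 4.43% against 16.3% on 2, 9.52% against 19.1% on 3 and 10.0% against 23.7% on 4. On chromosome 5 the values were close, 17.1% (11.3% to 24.9%) in the inner bands and 18.9% (16.2% to 21.9%) in the outer.

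The distance from the midpoint to the nearest gene-centred peaks varied among chromosomes. On chromosome 1, 1997 kb with 39 protein-coding genes separated the peaks of AT1G36730 (540 bp) and AT1G42440 (692 bp), while 21 other peaks lay between them. On chromosome 4 the stretch between the peaks of AT4G05631 and AT4G06744 was 1081 kb and held 16 protein-coding genes and 14 other peaks. On chromosome 2 the nearest peak above the midpoint lay 80.0 kb away, in AT2G10615, and the nearest below 623 kb away, in MCM5, a subunit of the replicative helicase (chr2:3526972-3527664). On chromosome 3 the nearest lay 429 kb above, in AT3G42050, and 300.1 kb below, in AT3G32960. On chromosome 5 the nearest lay 52.4 kb above, in AT5G33280 (544 bp wide), and 412 kb below, in AT5G32470.

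Over all 5 windows, median peak width was also smaller toward the midpoint. It was 396.5 bp in the innermost band (n = 22 peaks), then 449.5 bp (n = 38), 474 bp (n = 136), 501 bp (n = 182) and 523 bp in the outermost (n = 294). The intervals of the medians, 344 to 490 bp in the innermost band and 489 to 544 bp in the outermost, met at their ends. By chromosome, the innermost band held only 4 to 7 peaks, and none on chromosome 1. Its median was 525 bp against 542 bp in the outermost band on chromosome 2, and 362 against 499.5 bp on 3. The values were 351.5 against 594 bp on chromosome 4 and 403 against 523 bp on 5. On no chromosome did the medians rise steadily outward, and chromosome 4 had 608 bp in the second band (n = 2 peaks). Peaks of 1000 bp or more made up 4.55% (1 peak) and 0 of 38 peaks in the inner bands, then 7.35%, 11.5% and 11.6%.

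**Figure D2:**
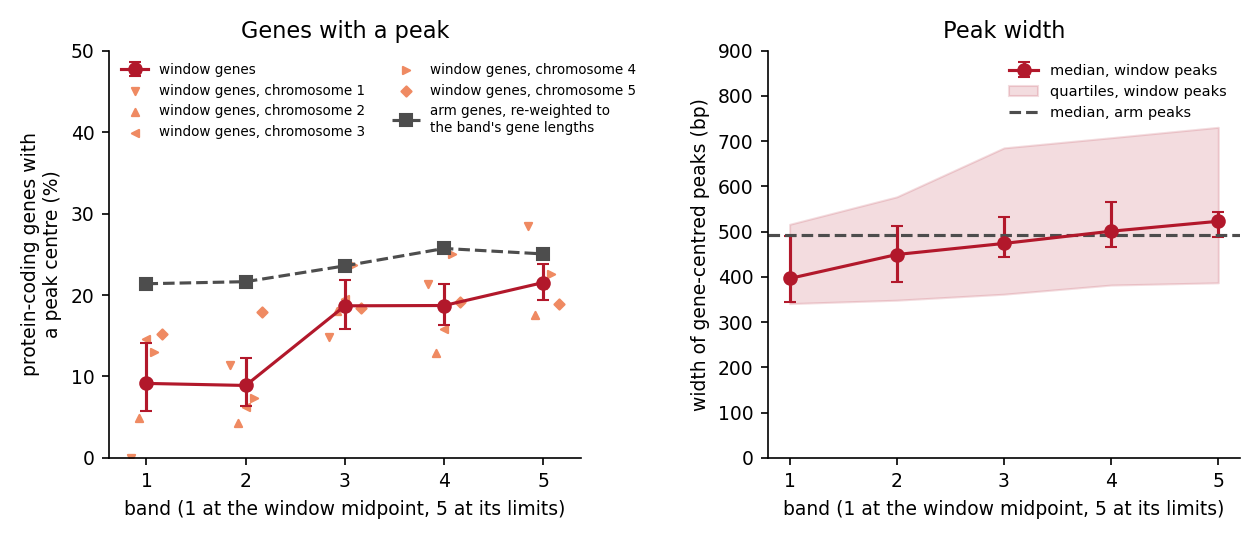
Left, share of window genes with a peak centre (%) in 5 bands outward from the window midpoint, all windows with Wilson 95% intervals (red) and each chromosome (orange), beside arm genes re-weighted to the gene lengths of each band (grey, dashed). Right, median width (bp) of gene-centred peaks per band with its 95% interval and quartiles, and the median of arm peaks, 492 bp (dashed). Over all windows, share and median width are lowest in the inner bands.

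Chromosome 2, with the lowest window share, also held the longest run of neighbouring window genes without a peak. From AT2G07440 to AT2G07680, 100 protein-coding genes in a row over 429 kb had no peak centre, and 1 peak of any kind lay among them. The median length of these genes was 884 bp, 62 of them were in the shortest length class, and 4 had a symbol. MCM5 is the first gene with a peak beyond the run. The run was picked for its lack of peaks, so leaving it out raises every share by construction. Without the run, 14.9% of the chromosome 2 window genes had a peak (12.3% to 18.0%) and 18.8% of all window genes. All 100 genes lie in the second band from the midpoint, whose share without them was 12.3% (8.85% to 16.9%), and that of the inner 2 bands 10.99% (8.41% to 14.2%). Chromosome 2 is known to carry a large copy of mitochondrial DNA near its centromere. How far the run coincides with that copy, and how reads shared with the mitochondrial genome were assigned, was not tested. The next longest runs in the windows, both on chromosome 5, had 49 and 41 genes, and the longest on the arms had 38.

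The longest rows of neighbouring window genes that each had a peak held 5 genes, against 10 on the arms; their genes were named after the rows were seen. One went from CRR2, a pentatricopeptide repeat protein of chloroplast RNA processing, through AT3G46800, AT3G46810 and the phosphatase gene TOPP5 to RABA2c, a small GTPase of membrane traffic. The other went from the beta-galactosidase gene BGAL5 through the thioredoxin gene TRX5 to AT1G45163.

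Where a window gene had a peak, the peak was about as wide as on the arms. The median width was 496 bp in the windows (order-statistic interval 478 to 524 bp) and 492 bp on the arms (485 to 501 bp). The difference was 4 bp, with an interval of -16.1 to 32.9 bp, and it was positive on 3 of 5 chromosomes. The window peaks ranged from 280 to 1974 bp, and the arm peaks from 279 to 1981 bp. Peaks of 1000 bp or more made up 9.82% in the windows and 10.3% on the arms.

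The median position in the gene was likewise close, and a larger share of window centres lay in the first 250 bp inside an edge. The median distance from centre to the nearest gene edge was 616 bp in the windows and 629 bp on the arms, a difference of -13 bp (-68.8 to 41.1 bp). With the arms re-weighted to the gene lengths of the windows, that difference was 24 bp. The shares by distance below were not re-weighted, and in a short gene every centre is near an edge. As a fraction of gene length that distance had a median of 0.258 in the windows and 0.263 on the arms. Centres within 100 bp of an edge made up 4.76% of window peaks (3.39% to 6.65%) and 2.75% of arm peaks (2.41% to 3.14%). From 100 to 250 bp the shares were 12.5% in the windows and 8.98% on the arms. From 250 to 750 bp window peaks were a smaller part, with 24.4% and then 18.2%, against 26.0% and then 21.2% on the arms. From 750 to 1000 bp they were a larger part, 14.1% against 12.1%, and beyond 1000 bp 26.0% against 29.0%. In every class beyond 250 bp the intervals of windows and arms overlapped. The peak lay wholly inside its gene in 85.0% of window members and 88.2% of arm members. Transcription start sites, exons, introns and UTRs were not analysed here.

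**Figure D3:**
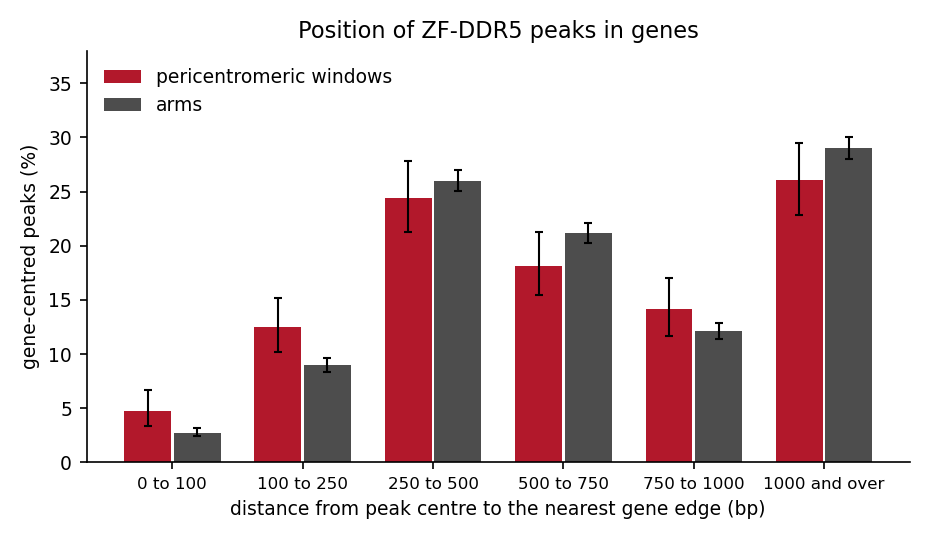
Share of gene-centred peaks (%) by the distance of the centre from the nearest gene edge (bp), in the windows (red, left) and on the arms (grey, right), with Wilson 95% intervals. The windows have the larger share within 250 bp of an edge, 4.76% and 12.5% against 2.75% and 8.98%, without adjustment for their shorter genes.

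The distances went with gene length in both regions. In the shortest class the median distance was 268.5 bp in the windows and 306 bp on the arms, in the longest class 1203 bp and 1152 bp. A peak covered its whole gene in 5 window members, all in genes of at most 798 bp and named for it after their values were seen: AT3G44695, AT5G28615, AT5G26865, AT3G28310 and AT1G35617. The peak over AT5G26865 is the same 1047 bp interval that is centred in AGL26, a MADS box gene (chr5:9457255-9458301).

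Genes with several peaks made up a smaller share in the windows. At least 2 peak centres were found in 60 window genes, 1.77% of all window genes against 4.18% of arm genes and 3.88% of all genes. Among genes with a peak the shares were 9.74% (7.64% to 12.3%) in the windows and 14.9% (14.1% to 15.8%) on the arms. At least 3 were found in 6 window genes, or 0.177%, against 140 arm genes, or 0.582%, and 0.532% of all genes. Genes with a peak were shorter in the windows, with a median of 2554 bp against 2667.5 bp on the arms. None of these shares was re-weighted for gene length. Window peaks also stood further apart, with a median gap to the nearest other peak of 4034.5 bp against 2822 bp on the arms.

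Of the 6 genes with at least 3 peaks, 4 have a symbol. GTA2, also called SPT5-2, encodes a transcription elongation factor and had 4 peaks, of 280, 308, 1505 and 683 bp, in 6113 bp of gene. Together they covered 45.4% of it. UVH3, an endonuclease of nucleotide excision repair, had peaks of 684, 1248 and 764 bp that covered 37.5% of the gene. HAF01, a TAF1 subunit of the basal transcription factor TFIID, had peaks of 516, 764 and 612 bp in 10519 bp. PTM, a PHD-type transcription factor, had peaks of 304, 389 and 471 bp, the last centred 3 bp inside an edge. The other two, AT2G11225 and AT3G44050, have no symbol, and their 3 peaks each covered 40.1% and 24.5% of the gene.

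Genes with 2 peaks include long genes of known roles. They were named here after their values were seen. CALS5, a callose synthase of the pollen wall (12062 bp), SAR1, a nucleoporin (9301 bp), CTC1, a telomere maintenance protein (6606 bp), and TPC1, a vacuolar cation channel (6052 bp), each had 2. So did PCL1, a clock transcription factor also called LUX, and KNAT1, a homeobox gene of the shoot meristem, with peaks of 455 and 340 bp.

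The widest members, all centred in a gene by definition, often filled much of it. The 25 widest measured 1344 to 1974 bp. Of these 22 lay wholly inside a gene, as did 85.0% of all window members. They covered a median of 55.7% of the gene, against 19.4% for all window members, and wider peaks cover more by construction. Of their 26 genes 8 have a symbol, beside 36.4% of window genes with a peak and 26.7% of all window genes. The widest was in TIF3B1, a subunit of translation initiation factor eIF3 (chr5:9781289-9783262, 1974 bp). AT3G46810 followed with 1859 bp and AT3G45390, an L-type lectin receptor kinase, with 1816 bp over 88.4% of the gene. NPY2, of a family that acts in auxin-dependent organ formation, had 1745 bp (chr2:6359515-6361259), the widest on chromosome 2. LCV2 had 1711 bp (chr1:16227768-16229478) and the receptor-like kinase gene CRK40 1610 bp (chr4:2290165-2291774), the widest on chromosomes 1 and 4. Among the rest were GTA2 (1505 bp), TPR9 (1471 bp), RCD1, which binds transcription factors in oxidative stress (1458 bp), and TPR3, a TOPLESS-related corepressor (1344 bp). AT3G43890 (1698 bp), AT3G28580 (1604 bp), AT3G44695 (1564 bp), AT5G37620 (1551 bp) and AT4G04980 (1543 bp) were the widest of the others. The rest, from 1519 to 1361 bp, were in AT1G46840, AT1G32910, AT1G43140, AT3G46730 with the overlapping AT3G46735, AT1G34320, AT3G28650, AT5G38890, AT5G26190, AT1G34480 and AT1G35610.

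Gene groups were drawn by symbol, and each count is read beside the 18.2% of all window genes and the 28.1% of all arm genes. Groups hold only genes with such symbols, which had peaks more often than the rest, 24.8% in the windows and 31.3% on the arms. Most groups have so few window members that the intervals are wide, and no test was made among the 17 groups.

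Of the 11 window genes that the symbol pattern for DNA methylation and silencing caught, 1 had a peak (9.09%, 1.62% to 37.7%), against 41 of 87 on the arms (47.1%, 37.0% to 57.5%). The window interval includes the 18.2% of all window genes, and the pattern missed silencing genes of the windows that had a peak. Among them were DRD1 (584 bp), a remodeller of RNA-directed DNA methylation, and NERD (364 bp), both named after their values were seen. CHR38, given below, was counted in another group. How many such genes the pattern missed was not counted in either region, so neither share is complete. The median gene length was 2432 bp in the windows and 3922 bp on the arms. The gene caught was HDA3, a plant-specific histone deacetylase, with a peak of 346 bp centred 46 bp inside an edge; the same peak is centred 268 bp inside the overlapping gene AT3G44740. DCL3, the Dicer that makes small RNAs for DNA methylation (7473 bp), VIM3, which binds methylated DNA, and the histone deacetylase gene HDA9 had none. Among chromatin remodelling and histone genes 3 of 9 had one, against 37.5% on the arms: PTM, CHR38 (433 bp), the CLASSY1 remodeller of RNA-directed DNA methylation, and CHR5 (417 and 311 bp), a CHD-type remodeller. ARP6, of the SWR1 complex, and HTA7, a histone H2A gene, had none. Nor had FAS4, which only its symbol placed in this group and whose role in chromatin was not checked. HAF01, named above and also called a histone acetyltransferase, had peaks but was missed by the pattern for this group, so the count is not complete.

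Growth and housekeeping groups had peaks in 2 to 6 window members each. Of 16 genes of the cell cycle, DNA replication and repair, 5 had one (31.3%, against 36.6% on the arms). They include CDC48B (849 bp), MCM5 (693 bp), the cyclin gene CYCB1;5 (552 and 368 bp) and RAD23D (351 bp). MCM9 and MCM2, relatives of MCM5, had none, nor had the helicase gene RECQSIM. Of 7 translation genes 2 had one, TIF3B1 and the ribosomal protein gene RPS18C (389 bp), against 37.7% on the arms. Of 11 protein turnover genes 6 had one (54.5%, 28.0% to 78.7%), against 28.3% on the arms (22.1% to 35.5%). These were the ubiquitin ligase gene PUB13 (792 bp), the proteasome subunit genes PAA2 (498 bp) and PAF2 (316 bp), UBC13 (479 bp), the F-box gene FBW2 (386 bp) and the ubiquitin protease gene UBP11 (310 bp). PAA1 and the polyubiquitin genes UBQ10 and UBQ11 had none. The only kinetochore gene in the windows, MIS12, had none.

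Receptor and defence genes held some of the wider window peaks. Of 22 receptor-like kinase and receptor-like protein genes 7 had a peak (31.8%, against 34.8% on the arms). CRK40 had the widest, followed by SERK5 (864 and 550 bp), a co-receptor kinase, RLP6 (803 and 357 bp), PRK1 (701 and 438 bp), a pollen kinase, CRK37 (607 bp) and RLP53 (381 bp). SERK4, SERK2 and RLP19 had none. Of 3 NLR immune receptor genes, RPP13 (758 bp) and RPP1 (339 bp), which act against downy mildew, had one and ADR1 had none. Of 25 cysteine-rich peptide genes, with a median length of 582 bp, 1 had one, LCR80 (522 bp), 4.00% against 4.93% on the arms.

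P450 and transporter genes had lower shares in the windows than on the arms, with intervals that overlap. Of 14 cytochrome P450 genes 2 had a peak (14.3%, 4.01% to 39.9%), against 39.0% on the arms (32.6% to 45.8%). They were CYP735A1 (425 bp), which makes trans-zeatin cytokinins, and CYP81D1 (325 bp), while CYP76C6, CYP716A1 and CYP702A8 had none. Of 30 transporter and channel genes 7 had one (23.3%, 11.8% to 40.9%), against 40.5% on the arms (35.5% to 45.7%). CHX4 (873 and 838 bp) and its neighbour CHX12 (672 bp), both cation exchangers, were among them, with the ABC transporter genes ABCB16 (846 bp) and ABCB17 (425 bp), GLR2.1 (593 bp), a glutamate receptor-like channel, and CHX24 (334 bp). ABCC13, the auxin transporter gene ABCB19 and ABCG38 had none, with gene lengths of 7991, 7574 and 6623 bp. Of 24 genes caught for glycosyltransferases and glycosidases 5 had one (20.8%, against 24.1% on the arms), led by the fucosyltransferase gene FUT10 (1098 bp) and UGT73B5 (451 bp). The 24 include SCPL43, a serine carboxypeptidase-like gene without a peak, and whether the arm set holds such genes is not given here. Of 12 photosynthesis genes 1 had one, ATPC1, the gamma subunit of the chloroplast ATP synthase (597 bp), 8.33% against 15.7% on the arms. GAPB, PRK and RBCS1B had none.

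Transcription factors were the largest named group. Of 84 transcription factor genes 17 had a peak (20.2%, against 24.4% on the arms). The widest were in AGL26 (1047 bp), NAC017 (819 bp), NAC015 (747 bp), the auxin response factor gene ARF8 (623 bp), NF-YC12 (573 bp) and NAC13 (537 bp). AGL44, MYB21 and AGL79 had none. The other 8 auxin response factor genes of the windows, ARF12 to ARF15 and ARF20 to ARF23, all on chromosome 1, had none. Of the 11 caught by symbol on the arms, 4 had one, and members listed under other symbols are not counted. This family was picked out after its values were seen. Of 21 embryo-defective and organelle RNA genes 10 had one (47.6%, 28.3% to 67.6%), against 33.5% on the arms (27.2% to 40.5%). They include emb1644 (1039 bp), EMB2744 (788 bp), EMB1467 (774 bp), SLO2, an RNA editing factor (770 and 367 bp), EMB2770 (721 bp) and emb1138 (588 bp), while EMB2756, EMB2656 and EMB2369 had none. Embryo-defective genes are named for a phenotype and encode proteins of many functions.

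Of the 5 window genes caught by the pattern for flowering, clock and photoreceptor symbols 4 had a peak (80.0%, 37.6% to 96.4%), against 27.1% on the arms (18.1% to 38.5%). CRY1, a blue-light receptor, had one of 1206 bp, ELF8, a subunit of the Paf1 elongation complex, had 796 and 758 bp, PHYC, a phytochrome, had 472 bp and RVE2, a clock-related MYB gene, had 388 bp. PCL1, named above, is a clock gene that the pattern missed. PHOT1, another blue-light receptor, with a gene length of 7490 bp, had none. Of 8 hormone signalling genes 2 had one, the gibberellin receptor gene GID1C (424 bp) and GA2OX4, which inactivates gibberellins (375 bp), against 26.7% on the arms. JAZ11, GH3.1 and AHP3 had none.

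Several of these families have near-identical or tandem copies that can share reads, so the presence or lack of a peak is uncertain for them. They include the SERK, RBCS, LHCB2, histone and ubiquitin genes, the ABCB genes next to ABCB16 and the ARF genes of chromosome 1.

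**Figure D4:**
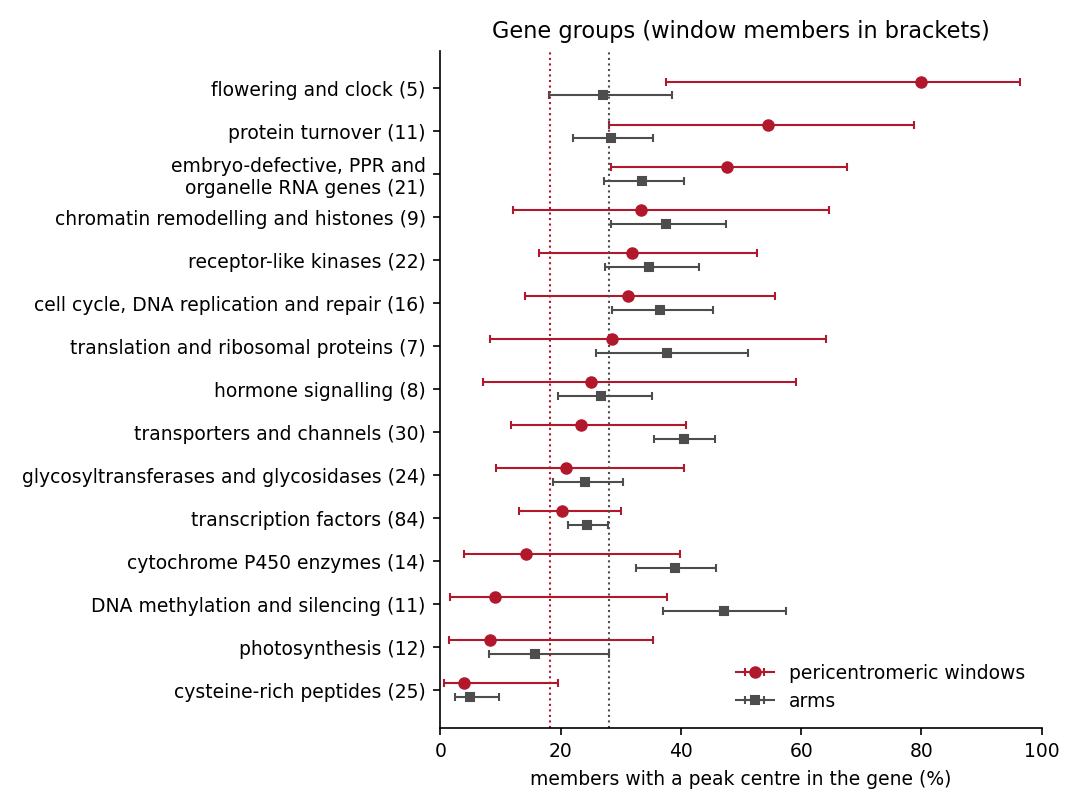
Share of genes with a peak centre in the gene body (%) for each gene group with at least 5 window members, in the windows (red circles, upper) and on the arms (grey squares, lower), with Wilson 95% intervals; dotted lines mark 18.2% of all window genes and 28.1% of all arm genes. Flowering and clock genes have the highest window share, 4 of 5, and cysteine-rich peptide genes the lowest, 1 of 25.

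The 10 members just inside a limit were 295 to 1175 bp wide, with a median of 656 bp. The 10 gene-centred peaks just outside were 284 to 600 bp wide, with a median of 447.5 bp. On chromosome 4 the lower limit fell inside DFL2, an auxin-related GH3 gene, with a peak of 1175 bp inside the window and one of 442 bp outside.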

How the data were processed

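The authors deposited 1 list of 9999 peaks for ZF-DDR5 replicate 1, in 3 columns (chromosome, start, end), with no score, count or signal; its coordinates are other values than a measured level. Per the submitters' processing notes, the tools were fastp (0.20.1), Bowtie2 (2.4.2), Picard (2.25.6), SAMtools and deepTools (3.5.1), with TAIR10 as the build. How peaks were called, at which threshold, against which control, from 1 replicate or several, and with what limit on their number is not given in these sources. Depth is unknown.

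Intervals are printed counted from 1. Genes came from the RefSeq table of TAIR10.1, which has no strand or exons; its gene coordinates are not printed, because the build differs in name. Shifting the peaks by 200 to 5000 bp either way left at most 650 window peaks in coding genes, against 672 unshifted. Peaks were placed by centre, genes by midpoint. Of the 672 members, 12 were centred in more than 1 gene, giving 617 genes, 1 of them with its midpoint outside a window. Shares have Wilson intervals, differences Newcombe intervals, densities exact Poisson intervals and medians order-statistic intervals, all at 95%. Python 3.11.15, pandas 2.3.3, numpy 2.4.6 and scipy 1.17.1 were used. The assignment was tested on simulated peaks.

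The members, windows and lists were chosen with earlier results of these data known. Genes noticed as wrongly caught by a symbol pattern were removed after values were seen, alike in both regions. SCPL43, by its name not a glycosyltransferase or glycosidase, was left in, and FAS4 was placed by its symbol alone. Genes were named by a fixed rule: those of the 25 widest peaks, of the widest peak per chromosome, with 3 or more peaks, nearest a midpoint or limit (those at limits mostly given as a range), and per group up to 6 with a peak by width and up to 3 without by gene length. Exceptions are marked, and 1 group member is not reported here.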

Additional observations from a re-analysis of the deposited data

How the results depend on the processing

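The difference in share was negative under all 16 alternatives, from -11.1 to -4.58 points. Window limits moved 0.5 Mb inward gave a window share of 16.7% and 436 members; moved outward they gave 21.1%, a difference of -6.98 points and 1067 members. The wider 50% of the peaks gave 352 members and shares of 9.90% in the windows and 15.7% on the arms, a difference of -5.78 points, with fewer peaks by construction. Counting any overlap of at least 1 bp gave 29.5% on the arms. Genes that overlap no other coding gene gave 16.8% in the windows and 27.5% on the arms. Without chromosome 2 the window share was 19.6%. Re-weighting arm genes to window lengths gave 24.4% on the arms and -6.18 points. The next settings were chosen after seeing the data. Genes with a symbol gave 24.8%, 31.3% and -6.48 points, and genes with 1 transcript 15.2% and 24.7%. In the lowest quartile of gene density the arm share was 27.5%, and 23.0% with re-weighting, a difference of -4.58 points. For each of these changes the cause was not tested, apart from the construction named. Median widths, distances and positions stayed within their intervals under every alternative run; the window median width lay between 480 and 505 bp. In all, 79 of 102 alternative values stayed within the 95% interval of the value reported or, for the number of members, which has no interval, within 1.5 times of it. No paired analysis was possible because 1 list of 1 sample was analysed, and no replicate could be left out. No stricter peak threshold could be tried, since peaks carry no score.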
